A study of Mus musculus with 12 samples.

Results

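ADAMTS proteases are secreted zinc metalloproteinases that carry thrombospondin-type repeats and cut proteins of the extracellular matrix (ECM). The 7 members examined here, Adamts1, Adamts2, Adamts4, Adamts5, Adamts6, Adamts12 and Adamts14, were chosen by name from the 420 genes of a targeted panel of ECM and cell adhesion transcripts, which holds 19 ADAMTS genes in all. The choice of the 7 was made with earlier results of these data known. Transcripts were counted in mouse pancreatic stellate cells (PSCs), the fibroblast-like cells of the pancreas that lay down matrix when activated. The comparisons ask how these transcripts differ without protein kinase N2 (PKN2), a serine/threonine kinase, and how they respond to TGF-β1, the cytokine that drives PSCs toward a myofibroblast state.

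Adamts1, Adamts4 and Adamts5 are of the aggrecanase type, which cleaves the core proteins of large hyaluronan-binding proteoglycans such as aggrecan and versican. Adamts2 and Adamts14 are procollagen N-proteinases, which remove the amino-terminal propeptide of fibrillar procollagens so that collagen can assemble into fibrils. Adamts6 and Adamts12 belong to neither class. Adamts6 has been linked to the fibrillin microfibril network, and Adamts12 to the cleavage of cartilage oligomeric matrix protein.

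The 4 groups of 3 libraries, named A, B and C in each, were WT PSCs with vehicle, PKN2 KO PSCs with vehicle, WT PSCs with TGF-β1 and PKN2 KO PSCs with TGF-β1, where TGF-β1 was given at 5 ng/ml and RNA was collected after 72 h. All PSCs were on the C57BL/6 background and, by the methods, came from a male mouse with Rosa26CreERT2 and PKN2 fl/fl alleles and were immortalised with SV40 large T. PKN2 was deleted in culture by 4-hydroxytamoxifen through a Cre that is expressed in all cell types, and whether WT PSCs also received 4-hydroxytamoxifen is not given in the sources used here, so its effect and that of the deletion cannot be told apart. The methods describe the PSCs as coming from 1 animal, whereas the series speaks of 3 lines per genotype, so the spread between libraries may be technical and p-values measure that spread only.

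Between 1074095 and 1473153 reads fell on the panel per library, of which the 7 members took 0.281% to 0.661%. Values are the authors' normalized counts, the reads of a library divided by 1 factor for that library. The panel lacks Pkn2, so its deletion was not checked here. The label of the cells was compared with marker genes. Of 10 stellate cell or fibroblast markers, 9 passed the filter on low values, with summed normalized counts of 336105 to 742551 per library. The sums were at most 23.25 for 5 epithelial markers, with Cdh16 at 0 in every library, at most 22.1 for 6 endothelial markers, with Sele at 0, and at most 38.15 for 10 leukocyte markers, with Itgal and Cd84 at 0. In bulk RNA, fewer cells that express a gene and less RNA of it per cell cannot be told apart.

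The 7 genes lie on 6 chromosomes of GRCm38 (mm10), by the GENCODE vM21 annotation. Adamts1 (ENSMUSG00000022893, chr16:85793827-85803113) and Adamts5 (ENSMUSG00000022894, chr16:85856173-85901828) are neighbours on the minus strand, 53059 bases apart, with the lincRNA gene 4930556C24Rik between them on the other strand. Adamts4 (ENSMUSG00000006403) is at chr1:171250421-171260637 on the plus strand. Among the N-proteinases, Adamts2 (ENSMUSG00000036545) is at chr11:50602084-50807573 on the plus strand and Adamts14 (ENSMUSG00000059901) is at chr10:61197112-61273438 on the minus strand. Adamts6 (ENSMUSG00000046169, chr13:104287835-104496695) and Adamts12 (ENSMUSG00000047497, chr15:11064790-11349231) are both on the plus strand. Values are the reads that the targeted panel gave for each gene, so they need not cover the whole gene and do not separate its exons or transcripts.

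The promoters of the N-proteinases are shown because the values of these genes part in PKN2 KO PSCs with TGF-β1. Each is the 250 bases before the RefSeq start site (GRCm38.p6), written 5′ to 3′ on the gene's strand, chr10:61273420-61273669 (minus) for Adamts14 and chr11:50601835-50602084 (plus) for Adamts2. The last bases of the Adamts14 window lie within the GENCODE gene, whose start is set further upstream. Capitals mark the CAGA box of SMAD binding elements (CAGAC, or GTCTG on the other strand) and the GC box of SP1-type factors (GGGCGG, or CCGCCC).
Adamts14: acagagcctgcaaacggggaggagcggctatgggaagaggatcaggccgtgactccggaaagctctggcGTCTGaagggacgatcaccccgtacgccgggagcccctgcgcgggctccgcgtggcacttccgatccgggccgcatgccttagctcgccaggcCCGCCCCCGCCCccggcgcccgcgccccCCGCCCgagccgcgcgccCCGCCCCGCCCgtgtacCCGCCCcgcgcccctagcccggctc
Adamts2: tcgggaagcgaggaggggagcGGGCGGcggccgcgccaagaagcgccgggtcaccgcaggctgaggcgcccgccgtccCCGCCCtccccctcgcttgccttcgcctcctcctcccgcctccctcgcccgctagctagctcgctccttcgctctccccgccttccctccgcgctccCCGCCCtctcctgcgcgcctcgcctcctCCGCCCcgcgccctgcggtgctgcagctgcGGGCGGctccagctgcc
The Adamts14 window held 1 CAGA box, with its first base at -181, and 6 GC boxes, a pair of which shared 1 base. The Adamts2 window held 0 CAGA boxes and 5 GC boxes. Of 32851 RefSeq promoter windows of the same length, 42.2% held a CAGA box and 32.7% a GC box, so the CAGA box of Adamts14 is a common feature. The TEAD core (GGAATG or CATTCC, in 12.6% of windows) and the AP-1 site (TGANTCA, in 6.75%) were searched on both strands and were in neither sequence. GC content was 76.4% for Adamts14 and 78.0% for Adamts2. A match of letters is a description and not a binding site, and 4 of the 7 members had a window in the table.

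TGF-β1 moved nearly the whole set, in opposite directions within it. In the main fit 1 member differed between genotypes in each condition, a share of the 7 close to that of all genes tested. Each gene was tested with limma on log2(normalized count + 1) among 238 genes, with an adjusted p under 0.05 as the threshold. With TGF-β1 in WT PSCs, 3 members rose (Adamts4, Adamts6 and Adamts12) and 3 fell (Adamts1, Adamts2 and Adamts5), where 50.8% of all genes tested were called, 23.9% as higher and 26.9% as lower. In PKN2 KO PSCs the same 3 rose and 4 fell, Adamts14 included, where 48.7% of genes were called, 19.7% as higher and 29% as lower. In vehicle Adamts5 was lower in PKN2 KO than in WT, 1 of 7 where 13.9% of genes were called, 10.9% as higher and 2.94% as lower. After TGF-β1 Adamts14 was lower in PKN2 KO, 1 of 7 where 15.1% were called, 8.82% as higher and 6.3% as lower. For genotype, the member counts depended on the scaling and on whether the library letter entered the fit as a block. With that block 4 of 7 were called in each condition, 2 as lower and 2 as higher. Of all 238 genes, 87 were called with it in vehicle and 101 after TGF-β1. In vehicle 2 of 7 were lower under TMM (33 of 238 genes called, 13 of them lower). Under median-of-ratios scaling 3 of 7 were lower (39 of 238 called, 20 of them lower). After TGF-β1 2 of 7 were lower under each of the 3 other scalings. Of the 238 genes, 29 were lower there with TMM, 30 with median-of-ratios and 23 with total count scaling. The 2 comparisons of genotype do not share libraries, whereas each comparison of treatment shares its libraries with them.

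**Figure D1:**
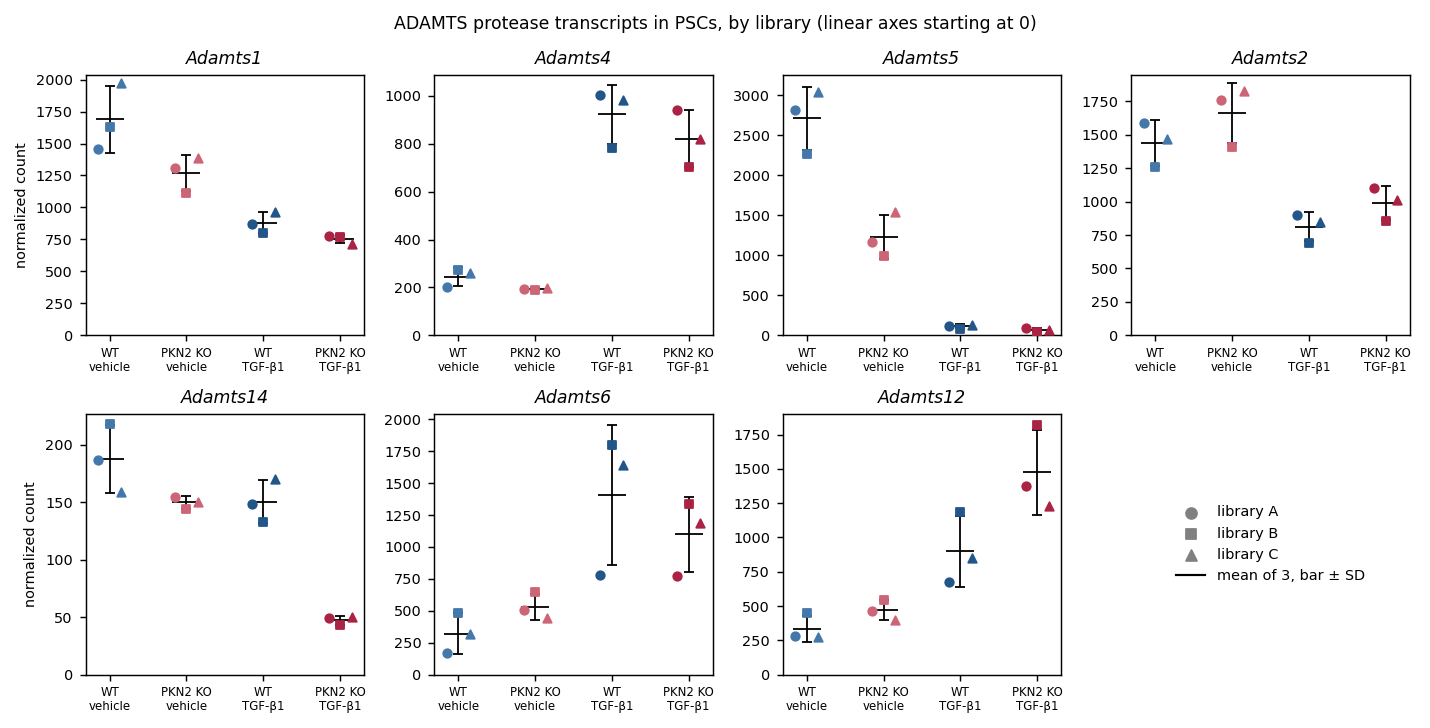
Normalized counts (linear axes from 0) of the 7 ADAMTS proteases by group, where circles, squares and triangles are libraries A, B and C and bars are the mean ± SD of 3 libraries. Adamts5 lay between 2272 and 3041 in WT vehicle and between 46.4 and 134 in all TGF-β1 libraries, and Adamts14 lay at 43.0 to 50.0 only in PKN2 KO PSCs with TGF-β1.

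Among the aggrecanase-type genes, Adamts5 had the largest TGF-β1 responses of the 7 members, and it was the member called as lower in PKN2 KO in vehicle. In WT vehicle its normalized counts were 2820.4, 2272 and 3041 in libraries A, B and C, and in PKN2 KO vehicle 1161.5, 993 and 1538. With TGF-β1 they were 118, 82.2 and 134 in WT and 95.75, 46.4 and 65.9 in PKN2 KO. All 3 PKN2 KO vehicle libraries lay below all WT vehicle libraries, and every TGF-β1 library lay far below every vehicle library, whereas the genotypes overlapped after TGF-β1. The mean was 2711 ± 396 (SD, n = 3) in WT and 1231 ± 279 in PKN2 KO with vehicle, a log2 difference of -1.15 (standard error 0.26, adjusted p = 0.00856) or 2.22-fold lower in PKN2 KO. This call was lost without WT vehicle library C, with a log2 difference of -1.06 and an adjusted p of 0.0547. With TGF-β1 Adamts5 fell by 4.61 on the log2 scale in WT (24.5-fold, adjusted p = 6.59e-09) and by 4.17 in PKN2 KO (18.0-fold, adjusted p = 1.07e-08). After TGF-β1 the means were 111 ± 26.3 and 69.4 ± 24.8, a log2 difference between genotypes of -0.71 (95% interval -1.27 to -0.14, adjusted p = 0.0924). That difference passed the threshold with each of the 3 other scalings of the libraries, with values between -0.83 and -0.72, and ran from -0.966 to -0.452 with 1 library left out, where 2 of 12 fits passed. In limma with the library letter as a block it also passed (adjusted p = 2.74e-06, or 0.0161 without a trend). The order of the group means was WT vehicle, PKN2 KO vehicle, WT TGF-β1 and PKN2 KO TGF-β1, and the libraries of the last 2 groups overlapped.

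Adamts1, an early-described member that also cleaves versican, fell with TGF-β1 in both genotypes. Its normalized counts were 1455, 1633 and 1977 in WT vehicle, 1306, 1113 and 1387 in PKN2 KO vehicle, 872, 799.8 and 966 in WT TGF-β1, and 776, 770.4 and 718 in PKN2 KO TGF-β1. The 4 groups did not overlap, and each PKN2 KO group lay below the WT group of the same treatment. With TGF-β1 it fell by 0.93 on the log2 scale in WT (standard error 0.16, adjusted p = 0.000218) and by 0.74 in PKN2 KO (adjusted p = 0.00174). Between genotypes the log2 difference was -0.41 in vehicle (95% interval -0.76 to -0.05, adjusted p = 0.136) and -0.22 after TGF-β1 (-0.57 to 0.14, adjusted p = 0.463), and neither passed the test. The vehicle difference passed with TMM scaling (-0.59) and with median-of-ratios scaling (-0.64). In limma with the library letter as a block it also passed (adjusted p = 0.00287, or 0.0411 without a trend). Under the authors' factors the median log2 difference of all 238 genes between genotypes was 0.21 in vehicle and 0.13 after TGF-β1, and the values of Adamts1 lay below these shifts.

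Adamts4, the other aggrecanase named for aggrecan cleavage, moved the opposite way. Its normalized counts were 201, 273 and 261 in WT vehicle and 195, 191 and 199 in PKN2 KO vehicle. They were 1004, 781 and 984 in WT TGF-β1 and 941, 704 and 819 in PKN2 KO TGF-β1. Every TGF-β1 library exceeded every vehicle library, and the genotypes overlapped after TGF-β1 and were separated in vehicle by the narrow gap from 199 to 201. Adamts4 rose by 1.91 on the log2 scale in WT (3.77-fold, adjusted p = 2.49e-07) and by 2.06 in PKN2 KO (4.17-fold, adjusted p = 1.44e-07). Between genotypes the log2 difference was -0.32 in vehicle (95% interval -0.68 to 0.05, adjusted p = 0.285) and -0.17 after TGF-β1 (-0.54 to 0.20, adjusted p = 0.607). The vehicle difference passed the test under median-of-ratios scaling alone among the scalings, at -0.55. The aggrecanase type thus split into 2 genes that fell and 1 that rose with TGF-β1, in both genotypes.

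Adamts2, the main N-proteinase of type I procollagen, fell with TGF-β1 in both genotypes. Its normalized counts were 1589.6, 1256 and 1472 in WT vehicle and 1758, 1410.4 and 1830.3 in PKN2 KO vehicle. With TGF-β1 they were 899, 689 and 848 in WT and 1101, 853 and 1009 in PKN2 KO. Every TGF-β1 library was below every vehicle library of its genotype, and the genotypes overlapped in each treatment. The fall was 0.83 on the log2 scale in WT (standard error 0.18, adjusted p = 0.00116) and 0.75 in PKN2 KO (adjusted p = 0.00282). Between genotypes the log2 difference was 0.21 in vehicle (95% interval -0.18 to 0.59, adjusted p = 0.536), a sign that turned to -0.02 under median-of-ratios scaling, and 0.28 after TGF-β1 (-0.10 to 0.67, adjusted p = 0.349). The difference after TGF-β1 passed in limma with the library letter as a block (adjusted p = 0.0443, or 0.0333 without a trend).

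Adamts14, a closely related N-proteinase, was lowest in PKN2 KO PSCs with TGF-β1. Its normalized counts were 186.5, 218 and 159 in WT vehicle, 155, 144 and 150.5 in PKN2 KO vehicle, and 149, 133 and 170.1 in WT TGF-β1. In PKN2 KO PSCs with TGF-β1 they were 49.2, 43.0 and 50.0, or 36, 50 and 41 reads. These 3 libraries lay far below the other 9, whose lowest value was 133. The mean was 150.5 ± 18.7 in WT and 47.4 ± 3.86 in PKN2 KO after TGF-β1, a log2 difference of -1.64 (standard error 0.21, adjusted p = 8.5e-05) or 3.12-fold lower in PKN2 KO. In vehicle the log2 difference was -0.31 (95% interval -0.77 to 0.14, adjusted p = 0.403), although the groups did not overlap. With TGF-β1 Adamts14 fell by 1.64 on the log2 scale in PKN2 KO (adjusted p = 1.34e-05), and the log2 difference in WT was -0.31 (95% interval -0.77 to 0.14, adjusted p = 0.26). WT vehicle, WT TGF-β1 and PKN2 KO vehicle were next to each other in level, at 188 ± 29.8, 150.5 ± 18.7 and 149.8 ± 5.32, and the last 2 did not differ beyond their spread.

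The response of Adamts14 to TGF-β1 differed between genotypes in the test of the difference itself. The interaction came to -1.33 in log2 units (standard error 0.30, 95% interval -1.97 to -0.68, adjusted p = 0.0257), 1 of 7 members where 3.36% of genes tested were called and 2.52% in this direction. The call was lost under total count scaling (-1.27) and in 9 of the 12 fits with 1 library left out, where the value ran from -1.44 to -1.21. It was lost without WT vehicle B or C, WT TGF-β1 A or C, PKN2 KO vehicle A, B or C, and PKN2 KO TGF-β1 B or C, with adjusted p-values up to 0.0879. The 6 other members had intervals of -0.31 to 0.69 (Adamts1), -0.47 to 0.62 (Adamts2), -0.37 to 0.67 (Adamts4), -0.35 to 1.24 (Adamts5), -2.28 to -0.01 (Adamts6) and -0.52 to 0.96 (Adamts12), and none passed the test.

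**Figure D2:**
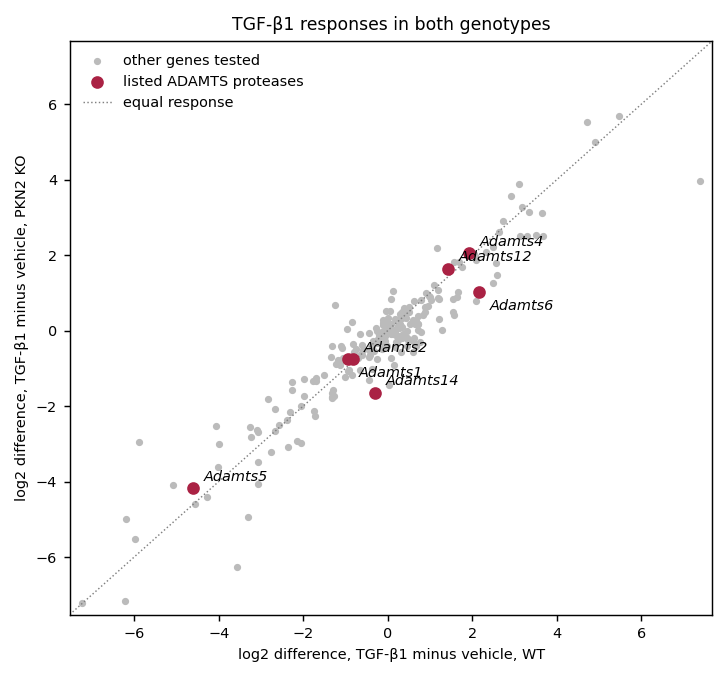
Log2 difference of TGF-β1 minus vehicle in WT PSCs (horizontal) and in PKN2 KO PSCs (vertical) for the 238 genes tested, with the 7 ADAMTS proteases in red and a dotted line where both responses are equal. Adamts14 lies below the line at -0.31 and -1.64, and Adamts5 lies near it at -4.61 and -4.17.

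Adamts6 and Adamts12 rose with TGF-β1 in both genotypes. The normalized counts of Adamts6 were 165, 484.5 and 315.5 in WT vehicle and 506, 645 and 446 in PKN2 KO vehicle. With TGF-β1 they were 784, 1799.6 and 1640.2 in WT and 771.5, 1335 and 1191 in PKN2 KO. The genotypes overlapped in each treatment, and every TGF-β1 library exceeded the vehicle libraries of its genotype. Adamts6 rose by 2.17 on the log2 scale in WT (4.49-fold, adjusted p = 0.000182) and by 1.02 in PKN2 KO (2.03-fold, adjusted p = 0.0359). The call in PKN2 KO was lost under each of the 3 other scalings (0.83 to 1.09), without a trend of the variance, and without PKN2 KO vehicle A (0.995) or C (0.904) or PKN2 KO TGF-β1 B (0.864) or C (0.946). Between genotypes its log2 difference was 0.84 in vehicle (95% interval 0.04 to 1.64, adjusted p = 0.171), a value that ran from 0.428 without WT vehicle A (adjusted p = 0.519) to 1.201 without WT vehicle B, the only such fit that passed, and -0.30 after TGF-β1 (-1.11 to 0.50, adjusted p = 0.678). Its interaction was -1.14 (adjusted p = 0.49). It passed under 1 of 13 alternatives, limma with the library letter as a block and a trend (adjusted p = 0.000143).

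Adamts12 had normalized counts of 282, 445 and 277 in WT vehicle and of 466.5, 541 and 396 in PKN2 KO vehicle. With TGF-β1 they were 673, 1182 and 847.5 in WT and 1373, 1823 and 1228 in PKN2 KO. The PKN2 KO libraries all exceeded the WT libraries after TGF-β1, and the genotypes overlapped in vehicle. Adamts12 rose by 1.42 on the log2 scale in WT (2.68-fold, adjusted p = 0.000172) and by 1.64 in PKN2 KO (3.13-fold, adjusted p = 5.19e-05). Between genotypes the log2 difference was 0.73 after TGF-β1 (95% interval 0.21 to 1.25, adjusted p = 0.0566) and 0.51 in vehicle (-0.02 to 1.03, adjusted p = 0.213). With 1 library left out the difference after TGF-β1 ran from 0.538 to 0.944 (adjusted p from 0.181 to 0.0162), and it passed the test in 2 of 12 fits, those without WT vehicle B or WT TGF-β1 B. Library B was the highest of its group in all 4 groups for both genes. The B libraries also had the largest factors of the authors' normalization in every group, 1.16 to 1.48 against 0.731 to 1.04 for A and C, and the part of this in the spread of Adamts6 and Adamts12 was not tested. The genotype difference of Adamts6 in vehicle passed in limma with the library letter as a block (adjusted p = 2.59e-05, 0.0307 without a trend). With that block Adamts12 passed in vehicle (0.000303 and 0.0216) and after TGF-β1 (6.83e-08 and 0.00429). Each was higher in PKN2 KO, and the letters did not meet the criterion for pairing set for this work.

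**Figure D3:**
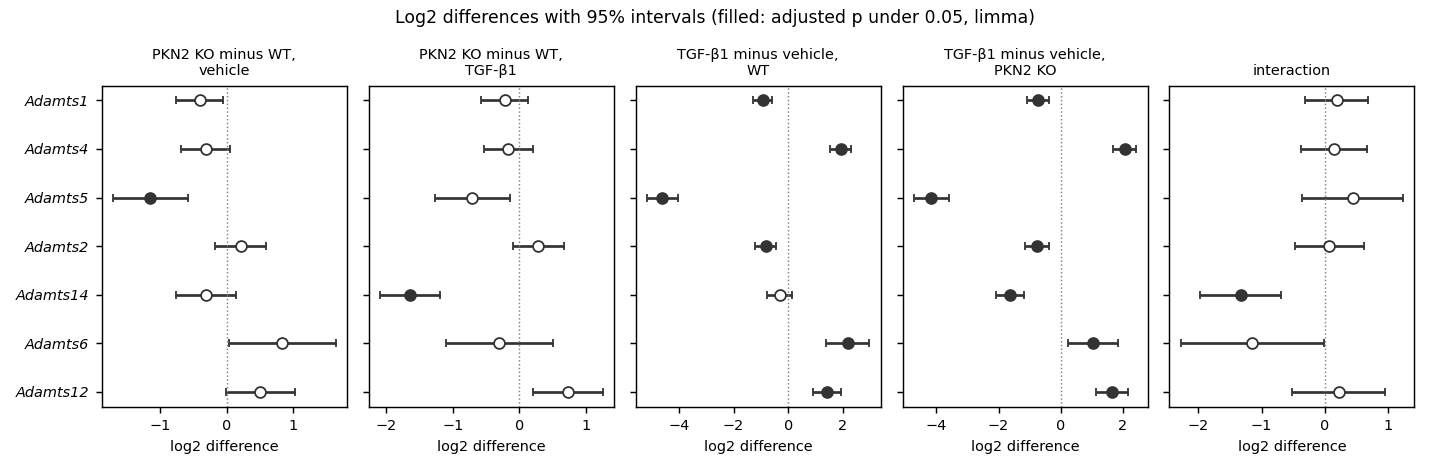
Log2 differences of the 7 members (rows) in the 5 comparisons (panels, each with its own horizontal scale), with 95% intervals from limma and filled points for an adjusted p under 0.05. Filled points number 1 and 1 for genotype in vehicle and after TGF-β1, 6 and 7 for TGF-β1 in WT and PKN2 KO, and 1 for the interaction.

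Over all 7 members, the WT and PKN2 KO libraries did not overlap for 4 genes in vehicle (Adamts1, Adamts4, Adamts5 and Adamts14), where 32.4% of all genes tested did not, and for 3 after TGF-β1 (Adamts1, Adamts12 and Adamts14), where 28.2% did not. With TGF-β1 the groups did not overlap for 6 members in WT and 7 in PKN2 KO, beside 55.9% and 52.9% of genes. The median log2 difference between genotypes over the 7 was -0.31 in vehicle beside 0.21 over all genes, and -0.22 after TGF-β1 beside 0.13.

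Ratios within a library do not depend on its scaling factor and show unequal change. Since the primers of a panel differ in efficiency, a ratio is not one of molecules, and no test was made on ratios. The ratio of Adamts14 to Adamts2 was 0.117, 0.174 and 0.108 in WT vehicle, 0.0880, 0.102 and 0.0822 in PKN2 KO vehicle, 0.165, 0.193 and 0.200 in WT TGF-β1, and 0.0447, 0.0504 and 0.0496 in PKN2 KO TGF-β1. The genotypes did not overlap in either treatment, and their mean log2 ratios differed by -0.52 in vehicle and by -1.95 after TGF-β1, PKN2 KO minus WT. The ratio of Adamts5 to Adamts1, the neighbouring genes, was 1.94, 1.39 and 1.54 in WT vehicle and 0.890, 0.892 and 1.11 in PKN2 KO vehicle. With TGF-β1 it was 0.135, 0.103 and 0.138 in WT and 0.124, 0.0603 and 0.0918 in PKN2 KO. The genotypes overlapped for this ratio after TGF-β1 but not in vehicle.

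The ratio of Adamts4 to Adamts1 lay between 0.132 and 0.171 in all vehicle libraries and between 0.914 and 1.21 in all TGF-β1 libraries, with the genotypes overlapping in each. The summed aggrecanase-type genes relative to the summed N-proteinase genes gave 2.52, 2.83 and 3.24 in WT vehicle, 1.39, 1.48 and 1.58 in PKN2 KO vehicle, 1.90, 2.02 and 2.04 in WT TGF-β1, and 1.58, 1.70 and 1.51 in PKN2 KO TGF-β1. The summed ratio was lower in PKN2 KO than in WT with no overlap, with log2 differences of -0.945 in vehicle and -0.320 after TGF-β1. The genes weighed unequally in these sums. In vehicle the WT and PKN2 KO means were 2711 and 1231 for Adamts5, 1688 and 1269 for Adamts1, and 245 and 195 for Adamts4. They were 1439 and 1666 for Adamts2, and 188 and 150 for Adamts14. The summed ratio in vehicle thus mostly follows Adamts5, Adamts1 and Adamts2. After TGF-β1 the WT and PKN2 KO means were 879 and 754.5 for Adamts1, 923 and 821 for Adamts4, and 111 and 69.4 for Adamts5. They were 812 and 988 for Adamts2, and 150.5 and 47.4 for Adamts14. Of these only Adamts14 passed the genotype test after TGF-β1, and its lower level in PKN2 KO raises the summed ratio. The lower summed ratio there thus follows genes that did not pass that test. With TGF-β1 the summed ratio fell in WT with no overlap, and the groups overlapped in PKN2 KO.

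**Figure D4:**
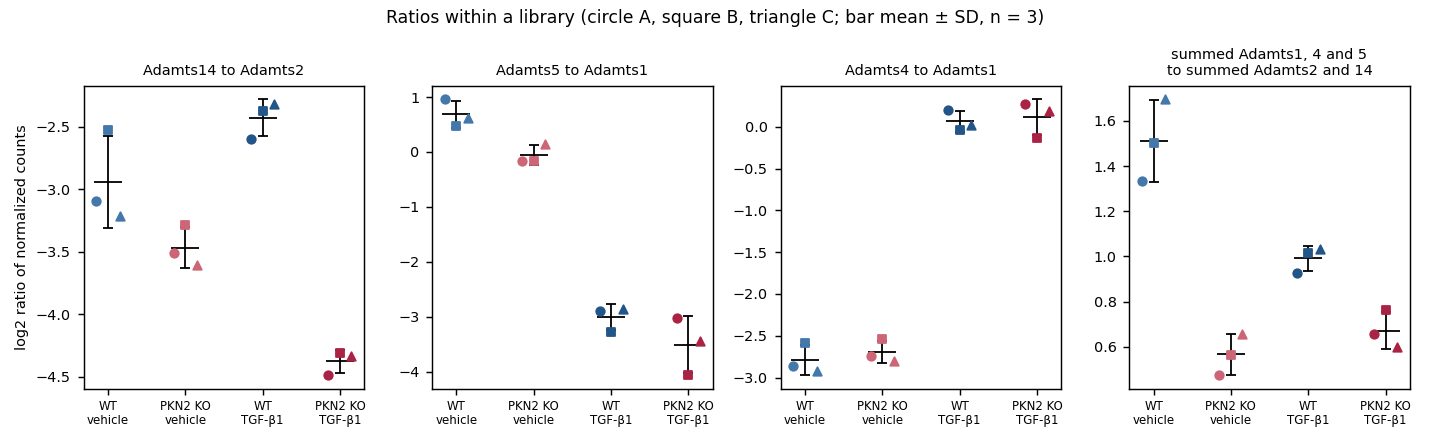
Log2 ratios of normalized counts within a library for 4 ratios, by group, with circles, squares and triangles for libraries A, B and C and bars for the mean ± SD of 3 libraries (each panel has its own vertical scale). The log2 ratio of Adamts14 to Adamts2 has a mean of -4.38 in PKN2 KO PSCs with TGF-β1 against -2.94, -3.47 and -2.43 in WT vehicle, PKN2 KO vehicle and WT TGF-β1.

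Of the other 12 ADAMTS genes of the panel, 4 passed the filter on low values. Adamts7, which is close to Adamts12 in its domains, rose with TGF-β1, with log2 differences of 2.05 in WT (adjusted p = 1.9e-07) and 2.02 in PKN2 KO (adjusted p = 2.75e-07), from 83.4 ± 7.50 to 347 ± 23.0 in WT. Adamts9, a versican-cleaving member, fell in both genotypes (adjusted p = 1.32e-05 in WT and 0.0012 in PKN2 KO). Its normalized counts were 44.8, 45.95 and 55.2 in WT vehicle and 18.75, 29.0 and 37.1 in PKN2 KO vehicle, and with TGF-β1 2 reads in each WT library and 7, 1 and 4 reads in PKN2 KO, so that the size of the fall depends on the pseudocount. Adamts8 and Adamts10 were not called in any comparison. The 8 others did not pass the filter.

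Genes of the substrates and partners were taken from lists chosen with earlier results of these data known. Of 4 hyaluronan-binding proteoglycans, the substrates of the aggrecanase type, only Vcan was tested, and it rose with TGF-β1 in WT with a log2 difference of 0.72 (adjusted p = 0.0126), beside 0.18 in PKN2 KO (95% interval -0.30 to 0.66, adjusted p = 0.552). The call in WT was lost without WT vehicle B (0.643) or C (0.635) or WT TGF-β1 C (0.661). The interaction of Vcan did not pass the test (-0.54, adjusted p = 0.572). Of the 7 fibrillar procollagen genes, the substrates of the N-proteinases, Col2a1 and Col11a1 were lower in PKN2 KO in both treatments, with log2 differences of -1.54 and -0.78 in vehicle and -1.99 and -1.53 after TGF-β1. Over all genes tested, 2.94% were called as lower in vehicle and 6.3% after TGF-β1. Col1a1 and Col1a2 were not called in any comparison. With TGF-β1 3 of the 7 rose and Col2a1 fell in WT, and 2 rose and Col2a1 fell in PKN2 KO. Over all genes tested, 23.9% rose and 26.9% fell in WT, and 19.7% rose and 29% fell in PKN2 KO.

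Among 10 other genes of procollagen processing, 9 were tested. Pcolce, which enhances the removal of the carboxy-terminal propeptide, fell with TGF-β1, with log2 differences of -0.94 in WT (adjusted p = 0.00743) and -1.07 in PKN2 KO (adjusted p = 0.0034). Plod2, a lysyl hydroxylase, rose by 1.68 and 1.83 (adjusted p = 1.11e-05 and 5.42e-06). Loxl2, a collagen cross-linking enzyme, was lower in PKN2 KO after TGF-β1, at a log2 difference of -1.34 (adjusted p = 0.0179), a call that was lost without WT TGF-β1 A (-1.01) or C (-1.36) or PKN2 KO TGF-β1 B (-1.02). In all, 3 of the 9 rose and 1 fell with TGF-β1 in WT, and 1 rose and 2 fell in PKN2 KO. Over all genes tested, 50.8% were called with TGF-β1 in WT and 48.7% in PKN2 KO. Of 4 TIMP inhibitors 3 were tested. Timp2 fell with TGF-β1, with log2 differences of -1.52 in WT and -1.17 in PKN2 KO, and Timp3, the main inhibitor of ADAMTS proteases, fell in PKN2 KO (-0.70, adjusted p = 0.0145), beside -0.43 in WT (adjusted p = 0.112). The Timp3 call was lost without PKN2 KO vehicle A (-0.66) or C (-0.60) or PKN2 KO TGF-β1 B (-0.53). The interaction of Timp3 did not pass the test (-0.27, adjusted p = 0.847). Of 5 other partners 3 were tested, and Thbs1 and Fbn1, a fibrillin of the microfibrils, rose with TGF-β1 in WT by 1.54 and 1.21. In PKN2 KO their log2 differences were 0.49 (adjusted p = 0.0908) and 0.32 (adjusted p = 0.403). The interaction passed the test for neither gene (-1.05 for Thbs1, adjusted p = 0.108, and -0.90 for Fbn1, adjusted p = 0.49). Thbs1 was lower in PKN2 KO after TGF-β1, at -0.90 (adjusted p = 0.0112), a call that was lost without WT TGF-β1 A (-0.76) or C (-0.87).

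For each member, the genes with the most similar profile were those with the smallest root mean square difference of log2 values over the 12 libraries, after each gene was centred on its own mean. They were Sgce (0.07), Ecm1 (0.15) and Pcolce (0.19) for Adamts2, Thsd7a (0.27), Cdh23 (0.38) and Plau (0.50) for Adamts14, and Vcam1 (0.38), Entpd1 (0.64) and Amigo2 (0.70) for Adamts5. For Adamts1 they were Mmp23 (0.20), Cd9 (0.24) and Thap3 (0.25), and for Adamts4 Flrt2 (0.21), Itga5 (0.23) and Plod2 (0.26). Adamts12 was the second closest to Adamts6 (0.50), after Pvr (0.44) and before Adam19 (0.54), and Adamts12 itself was closest to Adam19 (0.32), Pxdn (0.43) and Adamts7 (0.44). The spread of a member's own centred values, for scale, ran from 0.44 (Adamts2) to 2.27 (Adamts5).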

How the data were processed

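RNA from PSCs was amplified with a targeted panel and sequenced. The authors counted reads per gene with the kit maker's own pipeline and normalised to reference genes with DESeq2 1.32 (the submitters' processing notes also name STAR and mm10). Deposited were raw counts and normalized counts, the latter a signal of reads divided by 1 factor per library. Dividing by the smallest step returned whole reads for 100% of values (tolerance 0.01), equal to the raw counts for all 420 genes in 6 uniquely named columns. The 6 raw columns under a repeated name were not used. All 420 identifiers matched a symbol.

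limma 3.58.1 (R 4.3.3; lmFit, contrasts.fit, eBayes with trend and robust) was fitted to log2(normalized count + 1), with a pseudocount of 1 that understates folds of low genes. Of the 420 genes, the 238 that reached 10 normalized counts in 3 or more libraries entered the fit, which had 4 group means over 12 libraries. Tests were two-sided, with Benjamini-Hochberg adjustment and a threshold of 0.05. The script was tested on simulated data. Alternatives were edgeR 4.0.16 and DESeq2 1.42.0 on the recovered reads, TMM, median-of-ratios and total count scaling, other pseudocounts and filters, the variance settings, a replicate block, and each library left out. Named genes were all 7 members, then listed genes past the test, with at most 4 examples a list, and the 3 closest profiles. Members and lists were chosen with earlier results of these data known. Depth was 1074095 to 1473153 reads per library.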

Additional observations from a re-analysis of the deposited data

Results flagged for a closer look

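The response of Adamts14 to TGF-β1 differed between the genotypes in the test of the interaction, at -1.33 on the log2 scale (adjusted p = 0.0257, limma). The call was not stable. It passed in 3 of the 12 fits with 1 library left out and was lost under total count scaling (adjusted p = 0.0688). Adamts14 fell by 1.64 in PKN2 KO PSCs and differed by -0.31 in WT PSCs, and the 3 PKN2 KO libraries with TGF-β1 held 36, 50 and 41 reads of it.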

How the results depend on the processing

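Of 455 values (35 member values under 13 alternatives), 430 kept their direction and side of the threshold, 19 newly passed it, 5 no longer passed and 1 reversed (Adamts2 between genotypes in vehicle, -0.0236 with median-of-ratios scaling). With 1 library left out, 396 of 420 kept both, 5 newly passed, 14 no longer passed and 5 reversed, all of them interactions near 0 (Adamts2 -0.0412 to 0.176, Adamts12 -0.0009 to 0.438). Adjusted p-values over the 13 alternatives ran from 8.68e-15 to 0.022 for Adamts5 between genotypes in vehicle, from 2.11e-13 to 4.01e-04 for Adamts14 after TGF-β1, from 0.00287 to 0.183 for Adamts1 in vehicle, from 0.0199 to 0.36 for Adamts4 in vehicle, from 2.74e-06 to 0.147 for Adamts5 after TGF-β1, from 3.03e-07 to 0.25 for Adamts6 with TGF-β1 in PKN2 KO and from 1.47e-04 to 0.0688 for the Adamts14 interaction. Members called between genotypes in vehicle were 2 with TMM and 3 with median-of-ratios scaling instead of 1, and after TGF-β1 2 with TMM, 2 with median-of-ratios and 2 with total count scaling instead of 1, while the interaction lost its 1 with total count scaling (0). Genes called after TGF-β1 were 56, 55 and 65 under these 3 scalings instead of 36, and interactions were 4 without a trend instead of 8. The vehicle calls, 26 higher and 7 lower, became 20 and 13 with TMM and 19 and 20 with median-of-ratios, and those after TGF-β1, 21 and 15, became 27 and 29, and 25 and 30. With TGF-β1 in WT, total count scaling turned 57 higher and 64 lower into 54 and 95. With total count scaling the median of all genes with TGF-β1 moved to -0.25 in WT and -0.34 in PKN2 KO. Without 1 library the genes called in vehicle ran from 18 to 38 and members from 0 to 2, members after TGF-β1 from 1 to 3, and interactions from 0 to 11 genes and from 0 to 1 member. Of the 24 calls of the 12 named genes outside the members, none was lost in 310 refits under the other alternatives, and 4 were lost at least once in 288 refits with 1 library left out (277 kept). The cause of these changes was not tested. The replicate letters did not meet the criterion for pairing set for this work, a correlation of deviations above 0.1 in every letter. Letter C ran from -0.03 to 0.08 while A and B ran from 0.35 to 0.70. The deviations within a group sum to 0, so the letters are not independent in this check, which cannot exclude pairing. The letters shared 61.3% of the sum of squares within groups, which the main fit, without a block, counts as spread. With the replicate block, genes called were 87 in vehicle, 101 after TGF-β1 and 42 for the interaction (71, 90 and 17 with the block and no trend), and members were 4, 4 and 2 (4 and 4 for genotype without a trend). In vehicle these were Adamts1 and Adamts5 as lower and Adamts6 and Adamts12 as higher in PKN2 KO, with or without a trend. After TGF-β1 they were Adamts5 and Adamts14 as lower and Adamts2 and Adamts12 as higher, with or without a trend. The interactions with the block and trend were those of Adamts14 and Adamts6. With the block and trend, limma gave infinite prior degrees of freedom for 197 genes, and without the trend the median was 2.40.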
